A study of Mus musculus with 24 samples.

Results

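The genes followed here were *Cntfr*, *Alox15*, *Ptgs1*, *Krt23*, *C430049E01Rik* and *9330159F19Rik*, 6 of the 35022 genes counted after PD03 removal and of the 48709 counted after CHIRON removal. They were chosen for a large rise 12 h after PD03 removal or for a large gap between soft and stiff substrates at that time, so their values at 0 h and 12 h of PD03 removal are given as a description and were not tested. E14 mouse embryonic stem cells (mESCs, a line of strain 129 with the wild-type genotype) were placed on StemBond hydrogels, polyacrylamide-based gels to which matrix protein is tethered, coated with fibronectin and either soft (0.75 kPa) or stiff (160 kPa). All groups spent 12 h in 2i + LIF, which holds the MEK inhibitor PD03 (1 µM), the GSK3 inhibitor CHIRON (3 µM) and the cytokine LIF. In the first experiment PD03 was then withdrawn, leaving CHIRON + LIF, and in the second CHIRON was withdrawn, leaving PD03 + LIF. RNA was taken in 2i + LIF (0 h) and 2 h and 12 h after the change of medium, on each substrate, with 2 libraries per group. No group was without LIF, and the line is a single one, so other mESC lines were not measured.

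PD03 blocks MEK, the kinase that activates ERK, so its withdrawal lets FGF and other growth factor signals reach ERK. In mESCs active ERK promotes exit from naïve pluripotency, and CHIRON with LIF can hold the cells naïve without PD03. Genes that answer ERK fall into an immediate class, such as *Egr1*, *Fos* and the feedback inhibitors of the Dusp and Spry families, and a later class whose RNA builds up over hours. *Cntfr* encodes the ligand-binding receptor of ciliary neurotrophic factor, which signals through the LIF receptor and gp130. *Alox15* encodes a lipoxygenase and *Ptgs1* encodes cyclooxygenase 1, and both enzymes oxidise arachidonic acid, to hydroperoxides and to the precursor of prostaglandins. *Krt23* encodes a type I keratin, a subunit of intermediate filaments. *C430049E01Rik* and *9330159F19Rik* are protein-coding genes known by clone names, and the former is listed as *Ccdc194* in the GENCODE M21 annotation.

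The 6 genes lie on 5 chromosomes of GRCm38. *Cntfr* spans chr4:41657498-41697089 and *C430049E01Rik* spans chr8:71520120-71525711, both on the minus strand. *Alox15* (chr11:70344152-70352031) and *Krt23* (chr11:99477974-99493137) share a chromosome and the minus strand. *Ptgs1* (chr2:36230426-36252272) and *9330159F19Rik* (chr10:29211606-29230779) lie on the plus strand. Their promoters are shown for the genes with the largest rise on stiff substrates (*Cntfr*), with the largest share of its rise at 2 h (*Krt23*) and with a motif match (*9330159F19Rik*). The windows are those of RefSeq on GRCm38.p6, from 250 bases before to 50 bases after the start site, and capitals mark a match to a searched motif.

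*Cntfr*, chr4:41695404-41695703, minus strand, first of 6 listed windows: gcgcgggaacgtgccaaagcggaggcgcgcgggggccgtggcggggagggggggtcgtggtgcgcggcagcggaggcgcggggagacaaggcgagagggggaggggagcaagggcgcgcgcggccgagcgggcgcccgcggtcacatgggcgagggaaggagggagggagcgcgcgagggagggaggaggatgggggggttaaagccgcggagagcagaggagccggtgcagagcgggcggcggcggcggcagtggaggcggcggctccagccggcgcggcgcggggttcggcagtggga

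*Krt23*, chr11:99493071-99493370, minus strand: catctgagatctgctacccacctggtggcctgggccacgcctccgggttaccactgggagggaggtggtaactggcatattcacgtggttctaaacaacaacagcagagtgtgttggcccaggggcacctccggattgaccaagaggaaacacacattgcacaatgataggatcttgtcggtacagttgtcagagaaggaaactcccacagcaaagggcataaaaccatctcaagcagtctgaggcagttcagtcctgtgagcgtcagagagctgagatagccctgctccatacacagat

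*9330159F19Rik*, chr10:29211393-29211692, plus strand: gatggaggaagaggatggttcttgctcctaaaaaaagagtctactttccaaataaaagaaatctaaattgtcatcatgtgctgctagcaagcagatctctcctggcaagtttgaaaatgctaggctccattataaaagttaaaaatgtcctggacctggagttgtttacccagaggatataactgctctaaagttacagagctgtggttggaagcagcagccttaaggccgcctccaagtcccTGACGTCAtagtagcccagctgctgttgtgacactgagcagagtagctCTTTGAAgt

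RefSeq windows were matched for 5 of the 6 genes, and none was listed for *Alox15*. Motifs were searched on both strands, namely ETS (CCGGAA), AP-1 (TGANTCA), EGR1 (GCGNGGGCG), CRE (TGACGTCA), TCF/LEF (CTTTGAA) and STAT (TTCNNNGAA), and no 2 of the matches overlapped. In the 5 windows, the 1 CRE match and the 1 TCF/LEF match were both in *9330159F19Rik*, the CRE starting 7 bases before the start site and the TCF/LEF letters inside its first 50 transcribed bases. Among all 32851 windows, 1.79% held the CRE letters and 5.14% the TCF/LEF letters. ETS letters stood in 14.9% of all windows, AP-1 in 7.81%, EGR1 in 5.55% and STAT in 8.30%, and in none of the 5. One of the other *Cntfr* windows, the fourth listed, held the EGR1 letters. The windows differed in base composition. That of *Cntfr* was 78.7% G and C with 45 CpG sites, that of *9330159F19Rik* was 44% with 2 CpG sites, and the median window had 52.7% and 7 CpG sites.

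The total counts ranged from 16222196 to 26442153 over the 12 libraries of PD03 removal and from 19393787 to 31111260 over 11 libraries of CHIRON removal. A further library of CHIRON removal, stiff at 2 h, held 171333 counts and was left out, so that this group had 1 library. Embryonic stem cell markers summed to between 4832 and 7508 CPM (the usual depth-scaled count, here over protein-coding counts and normalised by TMM) in these 23 libraries. The markers of surface epithelium, where keratins abound, summed to at most 1.90 CPM in PD03 removal and 4.79 CPM in CHIRON removal, with *Krt5*, *Krt14*, *Trp63*, *Krt1* and *Krt10* in that list. Those of blood and macrophages, in which *Alox15* and *Ptgs1* are best known, summed to between 12.9 and 20.4 CPM in PD03 removal, and 1 of these 7 markers passed the filter on low counts. Some lists were lower at 12 h of PD03 removal than at 0 h. Embryonic stem cell markers summed to between 7184 and 7339 CPM on soft and 7278 and 7300 CPM on stiff substrates at 0 h. At 12 h they summed to between 6222 and 6356 CPM on soft and 6036 and 6066 CPM on stiff substrates. Neural markers (4) went from between 72.5 and 74.0 to between 58.6 and 60.7 CPM on stiff substrates, and overlapped between these times on soft substrates. Mesoderm, trophoblast, and blood and macrophage lists were higher at 12 h, as the 6 genes were. Mesoderm markers (5) summed to between 16.6 and 22.2 CPM at 0 h and to between 36.3 and 43.7 CPM at 12 h, trophoblast markers (5 counted of 6) to between 18.1 and 21.7 and then 33.3 and 39.7 CPM, and blood and macrophage markers to at least 12.9 CPM at 0 h and to between 18.1 and 20.4 CPM at 12 h, with no overlap between these times. Of the mesoderm markers 3, and of the trophoblast markers 2, passed the filter on low counts. Fibroblast markers overlapped between 0 h and 12 h on each substrate. Surface epithelium markers were lower at 12 h on soft and higher on stiff substrates. Primitive endoderm markers were higher at 12 h on each substrate, at 5.91 CPM or less. The part of any such cells in the results was not tested, and a change in the number of cells that use a gene cannot be told apart from a change in RNA per cell.

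In PD03 removal all 6 genes stood low in 2i + LIF and higher at 12 h, in every library and on both substrates. At 12 h both soft libraries lay below both stiff libraries for each of them, as for 20.5% of all tested genes. The share of all genes with 12 h wholly above 0 h was not counted. The 6 were chosen on these libraries, so nothing is read from either order. Of the 6, 5 would have passed the filter on low counts from their 0 h and 2 h libraries alone. *Alox15* would have done so with just 2 of those 8, both of soft at 2 h. *C430049E01Rik* passed only through its 12 h libraries.

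**Figure D1:**
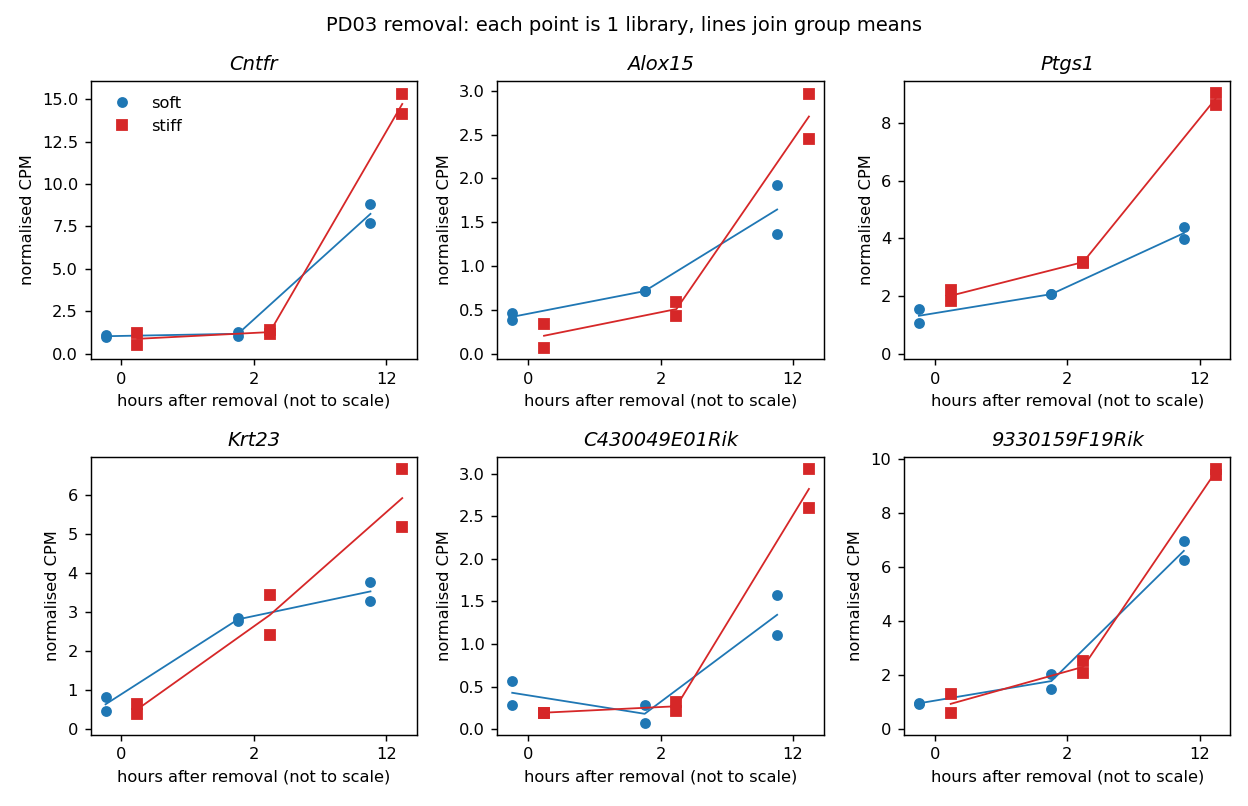
Normalised CPM of the 6 genes (vertical axis) at 0 h, 2 h and 12 h after PD03 removal (horizontal axis, not to scale) on soft (blue circles) and stiff (red squares) substrates. Each point is 1 library and lines join the means of 2 libraries. *Krt23* was already near 2.8 CPM on soft substrates at 2 h, while *Cntfr* stayed near its 0 h level until after 2 h.

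*Cntfr*, the cytokine receptor, had the largest rise of the 6. On soft substrates it was at 0.977 and 1.08 CPM at 0 h, 1.07 and 1.27 CPM at 2 h, and 8.80 and 7.68 CPM at 12 h. On stiff substrates it was at 0.519 and 1.23 CPM at 0 h, 1.17 and 1.37 CPM at 2 h, and 14.1 and 15.3 CPM at 12 h. The 2 h libraries thus overlapped the range of the 0 h libraries on both substrates, and 1.98% of the 12 h rise in mean CPM on soft and 2.87% on stiff substrates was present at 2 h. The fitted log2 fold change at 12 h was 3.00 ± 0.26 (standard error, SE) on soft and 3.99 ± 0.24 on stiff substrates, and at 2 h it was 0.18 ± 0.38 and 0.46 ± 0.37, the last ranging from 0.046 to 1.27 without 1 or the other library of stiff at 0 h. The stiff values at 12 h ranged from 3.58 to 4.80 when single libraries were left out, the ends coming from the 2 libraries of stiff at 0 h, with 8 and 25 counts.

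*Alox15* and *Ptgs1*, the enzymes of arachidonic acid, differed in how far they rose. *Alox15* was at 0.460 and 0.380 CPM on soft and 0.0649 and 0.343 CPM on stiff substrates at 0 h, which were 8, 6, 1 and 7 counts. At 2 h it was at 0.712 and 0.715 CPM on soft and 0.587 and 0.431 CPM on stiff substrates. At 12 h it was at 1.92 and 1.37 CPM on soft and 2.45 and 2.97 CPM on stiff substrates. All stiff libraries were thus below all soft libraries at 0 h and at 2 h, and above them at 12 h, in a gene of few counts. Of all tested genes, 18.7% at 0 h and 18% at 2 h had soft wholly above stiff. At 12 h 20.5% had soft wholly below stiff. Its log2 fold change at 12 h was 1.94 ± 0.47 (SE) on soft gels and 3.55 ± 0.49 on stiff gels, and the latter ranged from 2.94 to 5.20 without 1 or the other library of stiff at 0 h.

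*Ptgs1* started at the highest CPM and had the smallest log2 fold change of the 6 on stiff substrates. It was at 1.55 and 1.08 CPM on soft and 2.21 and 1.81 CPM on stiff substrates at 0 h, and at 2.07 and 2.07 CPM on soft and 3.19 and 3.16 CPM on stiff substrates at 2 h. At 12 h it was at 4.40 and 3.97 CPM on soft and 8.64 and 9.07 CPM on stiff substrates. *Ptgs1* was the 1 gene of the 6 whose soft libraries were below its stiff libraries at all 3 times. Taken time by time, this order was seen in 18.5% (0 h), 18.2% (2 h) and 20.5% (12 h) of all tested genes. Its log2 fold change at 12 h was 1.65 ± 0.26 (SE) on soft and 2.15 ± 0.21 on stiff substrates. An unclassified transcript on the other strand, *Gm43621*, overlaps 148 exon bases of *Ptgs1*, and whether counting used strand is not given in the sources used here.

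*Krt23*, the keratin, had the largest share of its 12 h rise at 2 h, the first time after removal. It was at 0.460 and 0.824 CPM on soft and 0.390 and 0.637 CPM on stiff substrates at 0 h. At 2 h it was already at 2.78 and 2.86 CPM on soft and 2.41 and 3.45 CPM on stiff substrates, above every 0 h library. At 12 h it was at 3.30 and 3.78 CPM on soft and 5.18 and 6.68 CPM on stiff substrates. The rise at 2 h was thus 75.2% of the rise at 12 h on soft and 44.6% on stiff substrates, as differences of mean CPM. The log2 fold change at 2 h was 2.14 ± 0.36 (SE) on soft gels and 2.44 ± 0.36 on stiff gels. A larger one was found in 10 (soft) and 6 (stiff) of the 13422 tested genes. The 0 h libraries in this change were used to choose the gene, so nothing is read from its place. The mean at 12 h was 1.25 times that at 2 h on soft and 2.02 times on stiff substrates.

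The clone-named genes differed in level. *C430049E01Rik* was at 0.287 and 0.570 CPM on soft and 0.195 and 0.196 CPM on stiff substrates at 0 h, and at 0.285 and 0.0795 CPM on soft and 0.326 and 0.216 CPM on stiff substrates at 2 h. At 12 h it was at 1.58 and 1.11 CPM on soft and 2.59 and 3.05 CPM on stiff substrates. At most 9 counts stood behind any value at 0 h or 2 h, so its log2 fold changes at 12 h, 1.64 ± 0.49 (SE) on soft and 3.79 ± 0.50 on stiff substrates, rest on few counts at the start. It is the gene with the largest distance between the substrates in this measure, and also the 1 with the fewest counts.

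*9330159F19Rik*, whose window held the CRE letters, was at 0.977 and 0.951 CPM on soft and 1.30 and 0.588 CPM on stiff substrates at 0 h. It was at 2.07 and 1.51 CPM on soft and 2.54 and 2.08 CPM on stiff substrates at 2 h, above every 0 h library. At 12 h it was at 6.25 and 6.96 CPM on soft and 9.43 and 9.64 CPM on stiff substrates. Its log2 fold change was 2.77 ± 0.27 (SE) on soft and 3.39 ± 0.26 on stiff substrates at 12 h, and 0.90 ± 0.35 and 1.36 ± 0.33 at 2 h. The values of stiff substrates ranged from 2.87 to 4.00 at 12 h and from 0.83 to 1.97 at 2 h without 1 or the other library of stiff at 0 h. The 12 h rise on soft substrates was 65.7% of that on stiff substrates in mean CPM, the nearest to equal of the 6, where the others ranged from 34.9% (*C430049E01Rik*) to 53.5% (*Krt23*).

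The order of the levels depends on gene length and was therefore taken per kilobase of exon (RPKM). On stiff substrates at 12 h *Cntfr* had the highest mean level, 5.29 RPKM, followed by *Krt23* (3.79), *Ptgs1* (2.28), *9330159F19Rik* (1.65), *C430049E01Rik* (1.55) and *Alox15* (1.10). Even so, 47.7% of the tested genes lay below *Cntfr* and 22.7% below *Alox15*, so that none of the 6 reached the middle of the tested genes. At 0 h on stiff substrates between 1.60% (*Alox15*) and 14.6% (*Ptgs1*) lay below.

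Of the early class, 10 of 14 genes had a larger fitted log2 fold change at 2 h than at 12 h on soft substrates. On stiff substrates 9 of 14 did. This order was not tested, nor was its share over all tested genes counted. Some differences were small, such as *Spred1* on soft (0.404 and 0.399) and *Myc* on stiff substrates (1.70 and 1.67). Of 15 early ERK target genes 14 were tested, and 11 rose at 2 h and 9 at 12 h on each substrate, while none fell (quasi-likelihood test of edgeR, Benjamini-Hochberg adjusted p under 0.05). Of all 13422 tested genes, 1.31% rose on soft and 1.83% on stiff substrates at 2 h, and 14.1% and 18.5% at 12 h. The median log2 fold change of the list was 1.38 at 2 h and 0.91 at 12 h on soft, and 1.53 and 0.96 on stiff substrates, beside −0.0017 and −0.0013 (soft) and −0.0031 and −0.0014 (stiff) over all tested genes. *Spry4*, a feedback inhibitor of receptor signalling, rose by a log2 fold change of 3.14 ± 0.08 (SE) at 2 h and of 2.39 ± 0.08 at 12 h on stiff substrates, and *Dusp6*, a phosphatase of ERK, by 2.15 ± 0.06 and 1.33 ± 0.06. *Etv4*, an ETS factor, went the other way, with 0.35 ± 0.05 at 2 h and 1.22 ± 0.05 at 12 h. *Etv5*, the most abundant of the list, was not called at 12 h, at −0.10 ± 0.04 on stiff substrates. In the contrast of substrates at 12 h, 6 of the 14 were called, each with the lower level on soft gels, where 0.477% of all tested genes were called in that direction. After CHIRON removal, with PD03 present, all 15 were tested, and at 12 h 1 rose and 7 fell on soft and 1 rose and 6 fell on stiff substrates.

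**Figure D2:**
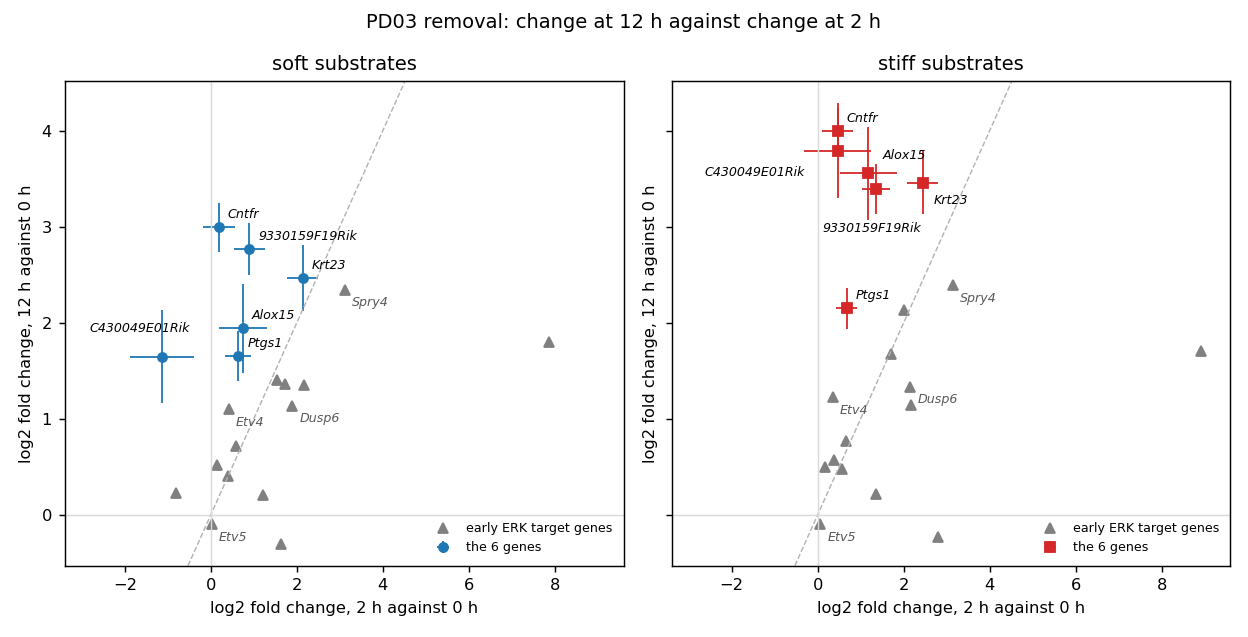
Log2 fold change at 12 h (vertical axis) against that at 2 h (horizontal axis) after PD03 removal, on soft (left) and stiff (right) substrates, for the 6 genes (coloured, bars are SE) and for the 14 tested early ERK target genes (grey triangles). On the dashed line both changes are equal. All 6 genes lie above it, *Krt23* closest to it, a place that their choice on 12 h values favours. Of the early genes, 10 lie below it on soft and 9 on stiff substrates.

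The substrates were compared at each time to ask whether stiffness changes the level of ERK-induced genes. At 0 h the fitted log2 fold changes of soft against stiff were positive in 5 genes and negative in 1, from −0.58 ± 0.29 (*Ptgs1*) to 1.08 ± 0.69 (*C430049E01Rik*). At 12 h all 6 were negative, from −1.08 ± 0.20 (*Ptgs1*) to −0.53 ± 0.20 (*9330159F19Rik*). The soft libraries lay wholly below the stiff ones for all 6 and for 20.5% of all tested genes, but the 6 were chosen on these libraries and nothing is read from this.

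The libraries at 2 h were not used to choose the genes, so soft against stiff was tested there, apart from *C430049E01Rik* and *Alox15*. *C430049E01Rik* passed the filter only through its 12 h libraries and had from 1 to 5 counts per library at 2 h. Without its 12 h libraries *Alox15* passed only through soft at 2 h, the group with the higher level in this contrast. The values of both are given as a description. None of the rest was called, with adjusted p from 0.50 to 0.98 by edgeR, where 0.134% of the tested genes were called. At an unadjusted p under 0.05 edgeR had 1 of the rest, beside 8.55% of all tested genes. DESeq2 called 0 of the rest, and 14 of all tested genes. *Ptgs1* had the smallest p, and its value was −0.62 ± 0.26 (SE), with unadjusted p = 0.024 and adjusted p = 0.50 by edgeR. It was at 2.07 ± 0.00038 CPM on soft and 3.18 ± 0.022 CPM on stiff substrates (SD, n = 2). In counts these were 29 and 26 on soft and 49 and 44 on stiff substrates, so counting error exceeds these SDs. For *9330159F19Rik* the log2 fold change was −0.37 ± 0.31, for *C430049E01Rik* −0.52 ± 0.84, for *Cntfr* −0.12 ± 0.37, for *Krt23* −0.05 ± 0.28 and for *Alox15* 0.47 ± 0.55. A p that misses the threshold does not show that the substrates were alike. The soft libraries lay wholly below the stiff ones for 2 of the tested genes, *Ptgs1* and *9330159F19Rik*, against 18.2% of all genes.

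**Figure D3:**
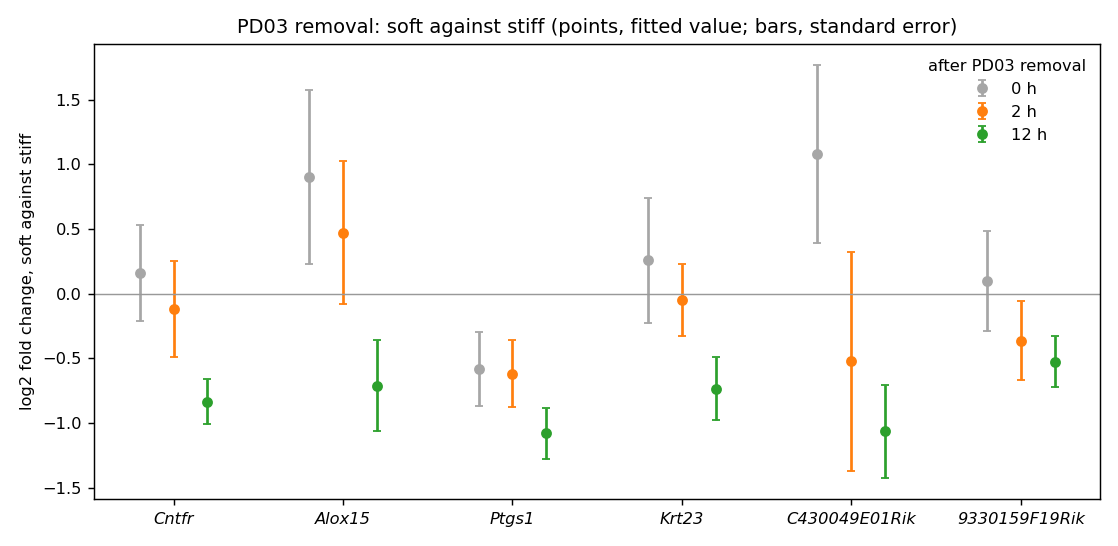
Fitted log2 fold change of soft against stiff substrates (vertical axis) for each gene (horizontal axis) at 0 h, 2 h and 12 h after PD03 removal, with bars of 1 SE. The 12 h values (green) are all below 0, between −1.08 and −0.53, whereas at 0 h (grey) *Ptgs1* alone is below 0 and the 2 h values are in orange.

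CHIRON removal was carried out to ask whether GSK3 and β-catenin signalling responds to stiffness, and there PD03 stayed in the medium throughout. These libraries were not used to choose the genes. Of the 6, *Alox15*, *Krt23* and *C430049E01Rik* did not pass the filter on low counts, and 3 were tested. *Cntfr* rose at 12 h on soft substrates and *Ptgs1* fell there. The remaining gene, *9330159F19Rik*, was called in no contrast. Thus 2 of the 3 tested genes were called on soft substrates at 12 h, where 17.8% of 14615 tested genes were called, and 0 of 3 on stiff substrates, where 16.8% were called. On stiff substrates edgeR had 1 of the 3 (*Cntfr*) at an unadjusted p under 0.05, beside 29% of all tested genes. DESeq2 called 0 of the 3 there, and 2241 of all tested genes.

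*Cntfr* was at 1.92 and 1.56 CPM on soft substrates at 0 h, 2.56 and 1.61 CPM at 2 h, and 3.41 and 3.26 CPM at 12 h. On stiff substrates it was at 2.82 and 1.85 CPM at 0 h, 1.67 CPM in the single library at 2 h, and 4.46 and 3.52 CPM at 12 h. Both 12 h libraries lay above both 0 h libraries on each substrate. The share of all tested genes with this order was not counted, so nothing is read from it. The log2 fold change at 12 h was 0.94 ± 0.31 (SE) on soft substrates (adjusted p = 0.043 from edgeR) and 0.77 ± 0.30 on stiff substrates (adjusted p = 0.093 from edgeR). The call on soft substrates lay near the threshold, since DESeq2 gave an adjusted p of 0.060 and leaving out either library of soft at 0 h gave 0.092 or 0.24 and of soft at 12 h 0.16 or 0.10 by edgeR. Leaving out either library of stiff at 12 h gave an adjusted p of 0.056 or 0.054 by edgeR, and testing all annotated genes gave 0.0569. The difference in response between the substrates was 0.17 ± 0.43 (adjusted p = 1.00 by edgeR).

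*Ptgs1* was at 0.984 and 0.910 CPM on soft substrates at 0 h and at 1.10 and 1.07 CPM at 2 h, and at 12 h it was at 0.112 and 0 CPM. In counts these were 20 and 21, 18 and 20, and 3 and 0. On stiff substrates it was at 0.651 and 0.489 CPM at 0 h, 0.232 CPM in the single library at 2 h, and 0.154 and 0.639 CPM at 12 h. The soft libraries at 12 h thus lay below all other soft libraries, whereas on stiff substrates the 12 h and 0 h libraries overlapped. On soft substrates the summed rate at 12 h was 0.0750 of that at 0 h, with an exact 95% interval of 0.0149 to 0.235 that covers counting error only. The fitted log2 fold change was −3.65 ± 0.87 (SE, adjusted p = 0.0067 from edgeR). It ranged from −7.18 to −3.01 as single libraries were left out and depended most on which library of soft at 12 h was kept. On stiff substrates it was −0.53 ± 0.71 (adjusted p = 0.68 from edgeR). The difference in response was −3.13 ± 1.18, with an unadjusted p of 0.016 and an adjusted p of 1.00 by edgeR, so that a difference between the substrates was not called. In PD03 removal *Ptgs1* had higher values at 12 h, and in CHIRON removal on soft substrates it had lower ones.

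*9330159F19Rik* varied more between replicates than between groups. It was at 0.935 and 0.564 CPM on soft and 0.922 and 0.109 CPM on stiff substrates at 0 h, and at 0.187 and 0.704 CPM on soft and 0.256 and 0.479 CPM on stiff substrates at 12 h. At 2 h it was at 0.487 and 1.39 CPM on soft substrates and at 0.741 CPM in the stiff library. Its log2 fold change at 12 h was −0.87 ± 0.81 (SE, adjusted p = 0.52 from edgeR) on soft and −0.48 ± 0.88 (adjusted p = 0.77 from edgeR) on stiff substrates, and the latter turned to 1.70 without replicate 1 of stiff at 0 h.

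The 3 genes below the filter had few counts with PD03 in the medium. *Alox15* had between 0 and 12 counts per library (at most 0.450 CPM), *Krt23* between 0 and 4 (at most 0.217 CPM) and *C430049E01Rik* between 0 and 8 (at most 0.487 CPM). A count of 0 allows up to 3 counts, which was between 0.112 and 0.192 CPM in these libraries. *Krt23* had 0 counts in both libraries of soft at 2 h and of stiff at 12 h. *C430049E01Rik* had 8 and 6 counts in the libraries of soft at 2 h, against 0 to 3 in the other 9 libraries. At 12 h *Alox15* had 12 and 6 counts on soft and 3 and 0 on stiff substrates, the reverse of its order after PD03 removal, at counts too low for the filter.

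**Figure D4:**
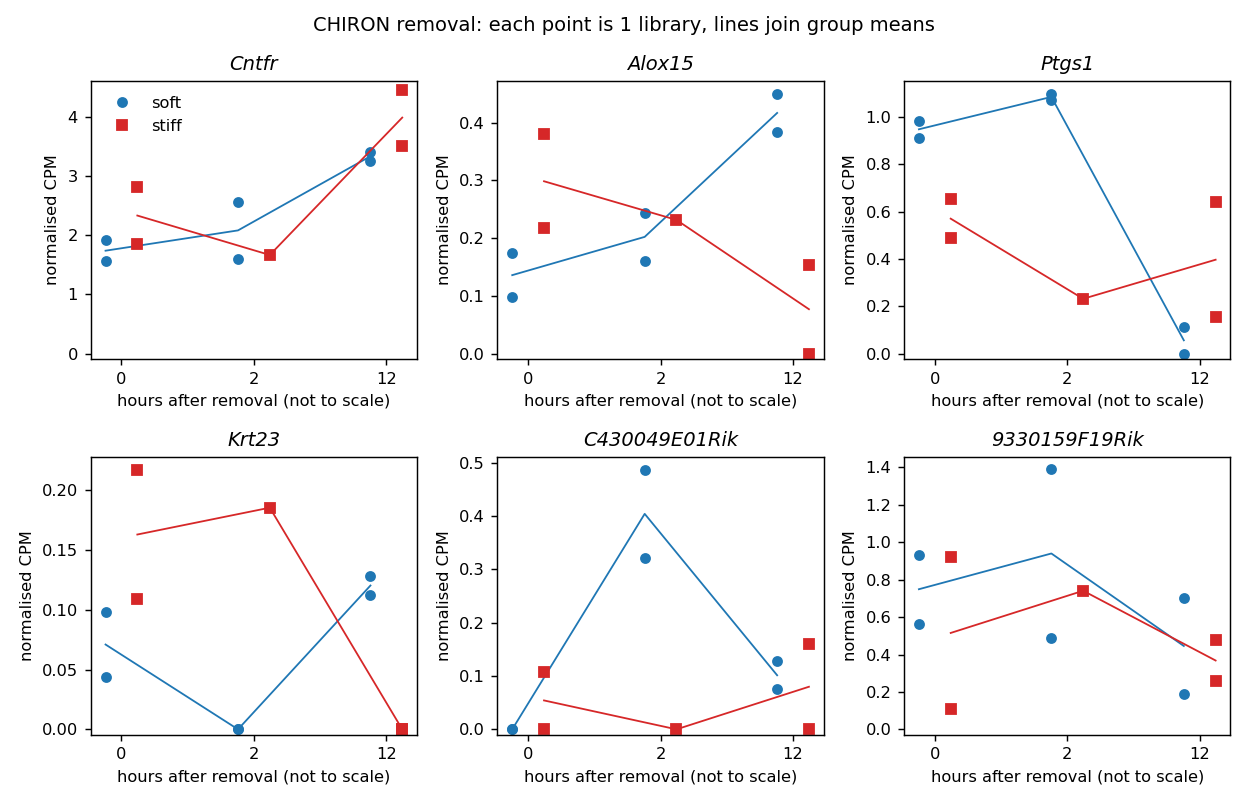
Normalised CPM of the 6 genes (vertical axis, a scale of its own per gene) at 0 h, 2 h and 12 h after CHIRON removal (horizontal axis, not to scale) on soft (blue circles) and stiff (red squares) substrates. Each point is 1 library, lines join group means, and stiff at 2 h has 1 library. The highest value of *Cntfr* is 4.46 CPM, against 15.3 CPM after PD03 removal, and *Ptgs1* at 12 h on soft substrates is at or near 0.

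At 2 h of CHIRON removal none of the 3 tested genes was called on either substrate, where 0.226% of all tested genes were called on soft and 0.103% on stiff substrates. By edgeR 0 of the 3 had an unadjusted p under 0.05 on either substrate, beside 9.09% of all tested genes on soft and 6.97% on stiff substrates, and DESeq2 called 0. Between soft and stiff substrates none of the 14615 tested genes was called by edgeR at 0 h, 2 h or 12 h (0% each), nor in the difference in response at 12 h (0%), though without the filter on low counts 17, 54, 15 and 7 genes were called, and 30 at 2 h in a fit of the compared groups alone. Without adjustment, 508, 837, 471 and 415 genes had p under 0.05 by edgeR in these 4 contrasts, and DESeq2 called 0 in each. *Ptgs1* was among those with unadjusted p under 0.05 in the 2 h contrast, where it was fitted 4.58 times as high on soft gels (adjusted p = 0.82 by edgeR), and in the 12 h contrast, where it was lower there, at −2.40 ± 0.99 (adjusted p = 1.00 by edgeR).

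The other genes of each pathway were described after PD03 removal, where 15.3% of all tested genes fell at 12 h on soft and 19.9% on stiff substrates. Of the 23 genes of the ciliary neurotrophic factor and LIF receptor pathway 19 were tested, and 5 rose and 2 fell on soft and 6 rose and 3 fell on stiff substrates at 12 h. The median log2 fold change of the list was 0.13 on stiff substrates. *Lifr*, the signalling partner of *Cntfr*, rose by 0.16 ± 0.05 (SE, adjusted p = 0.013 from edgeR) on stiff substrates, and *Il6st*, which encodes gp130, fell by 0.27 ± 0.05. *Socs2*, a feedback inhibitor of cytokine receptors, rose by 0.36 ± 0.07, and *Osm*, a cytokine of the family, fell by 0.65 ± 0.12. *Lifr* and *Il6st* encode receptor subunits. These receptor subunits share a complex with the *Cntfr* product and had smaller fold changes than *Cntfr* (3.99 ± 0.24). *Cntfr* was chosen on its 12 h values, so nothing is read from this.

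Of 15 lipoxygenases and partners 10 were tested, and 1 rose and 4 fell on soft and 0 rose and 3 fell on stiff substrates at 12 h. *Alox12*, a related lipoxygenase, fell by 1.83 ± 0.31 (SE) on soft and by 1.89 ± 0.34 on stiff substrates (adjusted p = 6.8e-05 from edgeR), while *Alox15* was higher. *Gpx4*, which reduces lipid hydroperoxides, fell by 0.40 ± 0.07 on stiff substrates, and *Ephx1*, an epoxide hydrolase, fell by 0.43 ± 0.09. *Pebp1*, a partner of lipoxygenases, was not called, with −0.01 ± 0.06.

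Of 26 prostanoid synthases and receptors, including the other cyclooxygenase, 17 were tested. At 12 h, 3 rose and 2 fell on soft and 4 rose and 4 fell on stiff substrates. *Ptges*, a prostaglandin E synthase that acts after cyclooxygenase, fell by 0.71 ± 0.08 (SE) on stiff substrates, and *Ptgr1*, which inactivates prostaglandins, fell by 0.57 ± 0.07. *Akr1b3*, an aldo-keto reductase, rose by 0.29 ± 0.05, and *Ptges3*, the most abundant of the list, was not called, with −0.06 ± 0.04. Of 22 phospholipases A2, which release arachidonic acid from membranes, 15 were tested, and 2 rose and 3 fell on soft and 4 rose and 4 fell on stiff substrates. *Pla2g4e* fell by 1.58 ± 0.13 and *Pla2g5* by 0.94 ± 0.18 on stiff substrates, *Pnpla8* fell by 0.30 ± 0.07 and *Pla2g1b* rose by 0.27 ± 0.10. No gene of these 4 lists was called between soft and stiff substrates at 12 h, where 0.767% of all tested genes were called.

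Most keratins were not tested, since 4 of the 26 other type I and 1 of the 26 type II keratins passed the filter. *Krt42* fell by 1.43 ± 0.30 (SE) on stiff substrates and *Krt8*, the keratin of simple epithelia, by 0.66 ± 0.16, at 12 h. *Krt18*, the usual partner of *Krt8*, was not called, with −0.18 ± 0.36 on soft and 0.51 ± 0.33 on stiff substrates. After CHIRON removal, where *Krt23* had at most 4 counts, *Krt42* rose by 1.44 ± 0.18 on soft and 1.69 ± 0.18 on stiff substrates and *Krt8* by 0.73 ± 0.15 and 0.53 ± 0.15.

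Neighbouring genes were examined because reads near a gene's end can be shared. *Soga3* lies 12.0 kb before *9330159F19Rik* on the same strand, and an annotated transcript that joins the pair, *Gm49353*, shares 397 exon bases with *9330159F19Rik* and has a row in neither table. *Soga3* was at 5.98 and 5.89 CPM on soft and 7.92 and 7.50 CPM on stiff substrates at 0 h, and at 27.3 and 28.4 CPM on soft and 42.9 and 44.6 CPM on stiff substrates at 12 h of PD03 removal. Its log2 fold change was 2.51 ± 0.11 (SE, adjusted p = 7.6e-17 from edgeR) on stiff substrates, so both neighbours were higher. In CHIRON removal *Soga3* fell by 1.18 ± 0.36 on soft substrates (adjusted p = 0.031 from edgeR). How many counts of *9330159F19Rik* came from such joined transcripts was not tested.

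Among the nearest protein-coding neighbours of the other genes, *Pelp1* rose at 12 h on both substrates and *Bst2* on stiff substrates. *Il11ra1*, 2.90 kb from *Cntfr*, had 0.17 ± 0.39 (SE) on stiff substrates at 12 h, and *Mrrf*, 39.8 kb from *Ptgs1*, had −0.15 ± 0.12, and neither was called. *Pelp1*, 40.9 kb from *Alox15*, rose by 0.52 ± 0.05, and *Bst2*, 8.54 kb from *C430049E01Rik*, rose by 0.99 ± 0.21 on stiff substrates and was not called on soft substrates, with 0.30 ± 0.22. *Echdc1*, on the far side of *9330159F19Rik*, was not called, with −0.17 ± 0.13. *Krt20* and *Krt39*, the neighbours of *Krt23*, had at most 1 and 6 counts per library of PD03 removal, and *Enho*, *Alox12e* and *Plvap* did not pass the filter there.

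The genes most alike in pattern were sought by Pearson's r of log2 CPM over the 12 libraries of PD03 removal, as a description of libraries that share 3 times and 2 substrates. Among themselves the 6 genes had r between 0.60 (*Krt23* and *C430049E01Rik*) and 0.94 (*Cntfr* and *Alox15*), with a median of 0.84 over 15 pairs. *Capn3*, a calpain protease (0.99), and *Sult4a1* (0.99) were nearest to *Cntfr*, *Zfp142* and *Tmem131* (both 0.97) to *Alox15*, and *Slc7a7*, an amino acid transporter (0.98), and *mt-Nd5* (0.98) to *Ptgs1*. *Slc39a14*, a zinc transporter, and *Hivep1* (both 0.97) were nearest to *Krt23*, *N4bp1* and *Brsk1* (both 0.97) to *C430049E01Rik*, and *Pml* (0.99) and *Raver1* (0.98) to *9330159F19Rik*. The mean pattern of the 6 was nearest to *Fzd7*, a Wnt receptor (0.99), followed by *Exoc3l* (0.99), *Arhgef2* (0.99), *Cd37* (0.99) and *Pelo* (0.99).

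Genes of like pattern differed in the size of their change. *Slc39a14*, like *Krt23*, had risen at 2 h, by 0.96 ± 0.08 (SE) on stiff substrates against 1.61 ± 0.07 at 12 h. *Fzd7* rose by 1.31 ± 0.08 and *Cd37* by 2.38 ± 0.11 on stiff substrates at 12 h. Over the 11 libraries of CHIRON removal r was 0.40 for *Cntfr* with *Capn3*, 0.74 for *Cntfr* with *Sult4a1*, 0.41 for *Ptgs1* with *Slc7a7*, 0.74 for *Ptgs1* with *mt-Nd5*, −0.37 for *9330159F19Rik* with *Pml* and −0.49 for *9330159F19Rik* with *Raver1*. *Sult4a1* rose on soft substrates 12 h after CHIRON removal, by 0.47 ± 0.16 (adjusted p = 0.046 from edgeR), as *Cntfr* did.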

How the data were processed

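RNA was extracted from lysates with a DNA digestion step, and libraries were made with Ribozero and Nextflex kits, per the labels. The authors aligned reads to mm10 (GRCm38) with TopHat2 2.1.0, counted reads per gene with featureCounts 1.5.0 and deposited the counts without normalisation. The 6 genes and all gene lists were chosen with earlier results of these data known. Genes were matched to GENCODE M21 (34865 of 35022 in PD03 removal, 48349 of 48709 in CHIRON removal), and the 12 columns of other samples in the first table were not used. Protein-coding genes (19321 and 21695) passed through filterByExpr (at least 10 counts in enough libraries and 15 in total) and TMM normalisation in edgeR 4.0.16, under R 4.3.3. The 6 groups of an experiment were fitted in 1 quasi-likelihood model, with Benjamini-Hochberg adjustment over all tested genes and a threshold of 0.05. The single library of stiff at 2 h in CHIRON removal was assumed to vary like the others. Each SE was derived as |log2 fold change| / √F.

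No label says that replicates were separate cultures, so p-values measure the spread between libraries, which may be technical. Replicates differed by 2.24 to 3.24 times the sampling noise in PD03 removal and by 6.55 to 19.7 times in CHIRON removal (chi-square per degree of freedom). For genes to name, a rule took all 6 genes and, from each list, the 2 genes with the highest mean CPM in PD03 removal and the 3 with the smallest adjusted p on stiff substrates at 12 h. It also took the nearest and overlapping annotated genes, and by Pearson's r of log2 CPM (prior count 2) the 2 genes most like each member and the 5 most like their mean. Alternatives were DESeq2 1.42.0, its size factors in edgeR, no filter, all annotated genes, only the groups compared, the replicate number as a block, the discarded library added, and each library left out. The procedure was tested on simulated data. Further steps used Python 3.11.15, pandas 2.3.3, scipy 1.17.1 and matplotlib 3.10.9.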

Additional observations from a re-analysis of the deposited data

Results flagged for a closer look

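The library of stiff at 2 h of CHIRON removal that was left out held 171333 counts, of which 97111 were of protein-coding genes. It is given here because 4 of the 6 genes had counts in it: *Alox15* had 4 counts, *Krt23* 3, *9330159F19Rik* 3 and *C430049E01Rik* 2, while *Cntfr* and *Ptgs1* had 0. In all, 17429 genes had a count in it. At this depth any count exceeds the highest CPM of the 6 genes on stiff substrates at 0 h, 2.82 (*Cntfr*). That these 4 stood above their 0 h level therefore follows from the depth, and nothing is read from it. For *Alox15* this was 41.2 CPM, with an exact 95% Poisson interval of 11.2 to 105 that covers counting error only, against at most 0.450 CPM in the other 11 libraries. For *C430049E01Rik* it was 20.6 CPM (interval 2.49 to 74.4), against at most 0.487. The rank correlation of this library with the other one of its group was 0.194, whereas the other 55 pairs of libraries had between 0.984 and 0.996.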

How the results depend on the processing

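The 30 log2 fold changes of the 6 genes after PD03 removal that were recomputed (4 time contrasts, and the substrates at 12 h) kept their sign under every alternative and every left-out library. All of them use 0 h or 12 h libraries, on which the genes were chosen, so nothing is read from the kept signs. Among the tested contrasts, the number of the 6 genes called on soft substrates 12 h after CHIRON removal went from 2 to 1 with DESeq2 or with all annotated genes (*Ptgs1* stayed called), to 0 with the discarded library added, and to between 1 and 2 as single libraries were left out. On stiff substrates it went from 0 to 1 (*Cntfr*) without the filter. Uncalled values that changed sign as single libraries were left out ranged, for soft against stiff 2 h after PD03 removal, from −0.24 to 0.0059 (*Cntfr*), −0.29 to 0.22 (*Krt23*) and −1.68 to 0.058 (*C430049E01Rik*). At 12 h on stiff substrates after CHIRON removal they ranged from −1.85 to 0.16 (*Ptgs1*) and −1.30 to 1.70 (*9330159F19Rik*). At 12 h after PD03 removal they ranged from −0.047 to 0.032 (*Pebp1*, stiff), −0.83 to 0.25 (*Krt18*, soft), −0.75 to 0.68 (*Il11ra1*, stiff) and −0.051 to 0.22 (*Mrrf*, soft). The cause was not tested.

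Without the filter, these counts of called genes were higher. For soft against stiff after PD03 removal they went from 4 to 29 at 0 h, 18 to 71 at 2 h and 103 to 187 at 12 h, and for CHIRON removal from 0 to 17, 54 and 15, from 0 to 7 for the difference in response, and from 33 to 144 (soft) and 15 to 89 (stiff) at 2 h against 0 h. With only the groups compared they were 175 for soft against stiff at 12 h after PD03 removal, and after CHIRON removal 30 for soft against stiff at 2 h and 0 on stiff substrates at 2 h. DESeq2 gave 2 for soft against stiff at 0 h after PD03 removal and 23 on stiff substrates at 2 h of CHIRON removal, and all annotated genes gave 0 and 8. Adding the discarded library gave 1 and 457 on soft and 0 and 461 on stiff substrates at 2 h and 12 h. As single libraries were left out, soft against stiff after PD03 removal gave 0 to 5 at 0 h, 5 to 28 at 2 h and 14 to 122 at 12 h. Against 0 h, PD03 removal gave 138 to 300 (soft) and 207 to 360 (stiff) at 2 h and 2594 to 4046 (soft) at 12 h, and CHIRON removal gave 8 to 41 (soft) and 5 to 29 (stiff) at 2 h, and 1376 to 2794 (soft) and 1295 to 2508 (stiff) at 12 h. Soft against stiff after CHIRON removal gave 0 to 12 at 0 h and at 2 h, and the difference in response 0 to 10.

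Libraries with the same replicate number were not paired by the labels, and their deviations from group means had a mean correlation of −0.0028 in PD03 removal and −0.020 in CHIRON removal. With a replicate block, 21 genes were called on soft and 4 on stiff substrates at 2 h of CHIRON removal, and no call of the 6 genes changed. The 3 genes not tested in CHIRON removal had at most 12 counts per library, and why they were low there was not tested.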
